A study of Mus musculus with 8 samples.

Results

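The IL-12 family cytokine subunit genes Il12a, Il12b, Il23a and Ebi3 were examined in CD11b+ cells of NOD.Idd3 and NOD mice, with and without peptidoglycan (PGN). The members were taken by name: the probe sets that the platform annotation pairs with exactly 1 of these symbols, which gave 5 probe sets for 4 genes among 34945 such probe sets for 18193 genes. Il12b had 2 probe sets and the other genes 1 each.

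The arrays fell into 4 groups of 2. These were NOD.Idd3 cells kept with PGN at 5 µg/ml for 4 h at 37 °C, NOD.Idd3 cells kept in medium without it, and NOD cells under the same 2 conditions. NOD mice develop autoimmune diabetes spontaneously, and NOD.Idd3 is a congenic strain with another allele at Idd3, a diabetes locus on chromosome 3 that includes Il2. CD11b, encoded by Itgam, is an integrin chain found on monocytes, macrophages, neutrophils and some dendritic cells. The sources used here do not give the tissue, sex and age of the mice or say whether animals were pooled. The labels call the arrays of a group biological replicates without saying what was separate between them, so p-values measure the spread between these samples. Itgam itself had log2 intensities of 7.87 to 9.02 over the 8 arrays, above the arrays' gene medians of 6.38 to 6.65.

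The family's cytokines are pairs of an alpha chain, folded as a bundle of helices, and a beta chain that resembles a soluble cytokine receptor. Il12a and Il12b encode the alpha and beta chains of interleukin-12, which drives interferon-gamma production by T and NK cells. Il23a encodes the alpha chain of interleukin-23, which shares the Il12b chain and sustains T cells that make interleukin-17. Ebi3 encodes the beta chain that pairs with the Il27 product in interleukin-27 and with the Il12a product in interleukin-35. Macrophages and dendritic cells make these chains after Toll-like receptor signals, with NF-kB proteins acting on several of their promoters. Il27, which no probe set named alone, was not analysed here.

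The 4 members lie on different chromosomes: Il12a on chromosome 3, which also holds Idd3, Il12b on chromosome 11, Il23a on chromosome 10 and Ebi3 on chromosome 17. RefSeq promoter sequences, from the C57BL/6J genome (GRCm38.p6), were at hand for Il12a, Il12b and Ebi3. The 250 bases before the annotated start are given, since these 3 genes had different sizes of response. Each is on the + strand, and capitals mark the motif matches described after them.
Il12a, chr3:68690394-68690643: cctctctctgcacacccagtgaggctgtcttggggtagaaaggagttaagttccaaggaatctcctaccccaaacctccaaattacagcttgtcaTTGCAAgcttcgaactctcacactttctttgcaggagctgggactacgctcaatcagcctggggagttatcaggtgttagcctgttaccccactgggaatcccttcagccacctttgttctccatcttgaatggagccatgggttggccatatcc
Il12b, chr11:44399813-44400062: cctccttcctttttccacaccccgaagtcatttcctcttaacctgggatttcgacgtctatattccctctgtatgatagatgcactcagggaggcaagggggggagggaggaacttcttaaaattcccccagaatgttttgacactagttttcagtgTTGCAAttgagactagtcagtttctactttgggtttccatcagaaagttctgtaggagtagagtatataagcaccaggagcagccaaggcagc
Ebi3, chr17:55952373-55952622: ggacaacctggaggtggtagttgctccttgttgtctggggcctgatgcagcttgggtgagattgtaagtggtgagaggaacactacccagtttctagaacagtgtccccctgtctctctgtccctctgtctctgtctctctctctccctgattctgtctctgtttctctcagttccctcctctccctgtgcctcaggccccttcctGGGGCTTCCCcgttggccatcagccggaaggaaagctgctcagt

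Both strands of each window were searched, and overlaps between motifs were allowed. The Ebi3 window held a match to the kappaB consensus, the NF-kB motif, at positions -44 to -35 from the start, and 3.9% of 32851 promoter windows of this length held such a match. The C/EBP core TTGCAA stood at -93 to -88 in the Il12b window and at -155 to -150 in the Il12a window, and 5.34% of all windows held it. None of the windows of the 3 genes held the AP-1 motif TGANTCA, present in 6.75% of all windows. Neither the interferon response element (a GAAA repeat, 2.98% of all windows) nor the TATA box motif TATAAA (12.4% of all windows) was found in them. Only these exact patterns were counted, so near variants, such as tatataa in the Il12b window, were not. A second annotated Il12a start (chr3:68691174-68691423) had no match to any of these motifs in its window. These matches describe letters in the reference and not binding.

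The first question was how the subunit genes respond to PGN. Averaged over the strains, Il23a, Il12a and Ebi3 were higher with PGN and Il12b did not pass the test. The test was limma with a Benjamini-Hochberg adjusted p under 0.05 over 18193 genes. The 3 of 4 members stood against 11.3% of all genes called in either direction. The members' median log2 change was 2.28, beside 0.05 over all genes. Il23a had the 18th and Il12a the 24th largest rise of all genes tested. Ebi3 was 812th and Il12b 2185th in the same order.

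**Figure D1:**
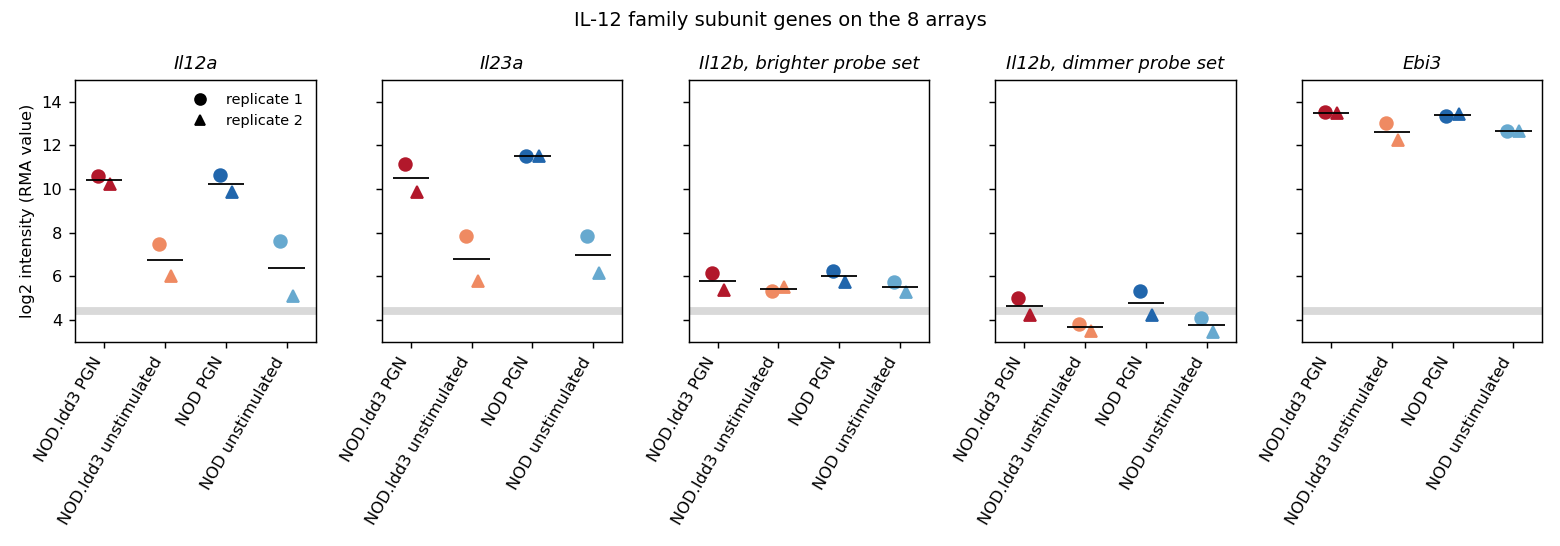
Log2 intensity of the 5 probe sets on the 8 arrays, by group (circles replicate 1, triangles replicate 2, lines group means). The grey band spans the arrays' 25th percentiles over genes (4.28 to 4.57). Il12a and Il23a separate PGN from unstimulated arrays with no overlap, Ebi3 sits above 12 on all arrays, and Il12b stays below 6.5.

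Among the alpha chains, Il12a had log2 intensities of 10.60 and 10.23 in PGN-treated NOD.Idd3 cells, against 7.49 and 6.01 in unstimulated NOD.Idd3 cells (replicates 1 and 2 in that order throughout). The values were 10.62 and 9.86 in PGN-treated NOD cells, against 7.64 and 5.12 in unstimulated NOD cells. The 4 PGN arrays were close together and lay above the 4 unstimulated arrays, which were spread over more than 2 log2 units. On the arrays' own scale, Il12a stood between percentiles 83.6 and 89.1 of probe sets with PGN and between percentiles 40.6 and 66.7 without. The averaged change was 3.76 ± 0.53 on the log2 scale (limma SE, 4 arrays per condition), or 13.55-fold with a 95% interval of 5.85 to 31.37 (limma adjusted p = 0.00312). Group means followed the order PGN-treated NOD.Idd3 (10.42 ± 0.26, SD, n = 2), PGN-treated NOD (10.24 ± 0.53), unstimulated NOD.Idd3 (6.75 ± 1.04) and unstimulated NOD (6.38 ± 1.79). Within each condition the strains differed by less than their spread.

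Il23a had log2 intensities of 11.16 and 9.85 in PGN-treated NOD.Idd3 cells, against 7.84 and 5.79 in unstimulated NOD.Idd3 cells. PGN-treated NOD cells stood at 11.53 and 11.51, against 7.84 and 6.13 in unstimulated NOD cells. Every PGN array was again above every unstimulated array, and the 2 PGN-treated NOD arrays were nearly equal. The averaged change was 4.11 ± 0.52, or 17.3-fold with a 95% interval of 7.61 to 39.34 (limma adjusted p = 0.00189). The order of group means was PGN-treated NOD (11.52 ± 0.02), PGN-treated NOD.Idd3 (10.51 ± 0.93), unstimulated NOD (6.98 ± 1.21) and unstimulated NOD.Idd3 (6.82 ± 1.45). The 2 unstimulated means lay within their spread, and the PGN-treated means differed by 1.01, near the SD of the NOD.Idd3 pair.

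Among the beta chains, the brighter Il12b probe set had log2 intensities of 6.17 and 5.37 in PGN-treated NOD.Idd3 cells, against 5.35 and 5.53 in unstimulated NOD.Idd3 cells. It stood at 6.26 and 5.75 in PGN-treated NOD cells, against 5.76 and 5.27 in unstimulated NOD cells. The groups overlapped, and the averaged change was 0.41 ± 0.23 (95% interval -0.10 to 0.92, limma adjusted p = 0.306). Even with PGN this probe set stayed between percentiles 43.2 and 54.3 of probe sets. Its group means were 5.77 ± 0.57 in PGN-treated and 5.44 ± 0.12 in unstimulated NOD.Idd3 cells, and 6.0 ± 0.36 in PGN-treated and 5.52 ± 0.34 in unstimulated NOD cells. With the 4 means put in order of size, each differed from the next by less than the larger SD of the pair.

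The dimmer Il12b probe set had log2 intensities of 5.01 and 4.23 in PGN-treated NOD.Idd3 cells, against 3.81 and 3.51 in unstimulated NOD.Idd3 cells. It had 5.32 and 4.22 in PGN-treated NOD cells, against 4.11 and 3.44 in unstimulated NOD cells. Here the PGN arrays did not overlap the unstimulated ones. The unstimulated values lay between percentiles 13.9 and 23.2, below the arrays' lower quartile. In a limma fit of all 34945 probe sets the averaged change was 0.98 ± 0.29 (adjusted p = 0.0661), with 11.3% of probe sets called. With the replicate number as a block, an alternative chosen after seeing the data, it was 0.98 ± 0.16 (adjusted p = 0.00447), with 16.7% of probe sets called. The same fit called it in NOD.Idd3 (0.96 ± 0.23, adjusted p = 0.0453) and in NOD (1.00 ± 0.23, adjusted p = 0.0336). The share of probe sets that this fit called within single strains was not counted. Without the block it was not called in NOD.Idd3 (0.96 ± 0.41, limma adjusted p = 0.305), with 3.03% of probe sets called. Nor was it called in NOD (1.00 ± 0.41, limma adjusted p = 0.231), with 4.01% of probe sets called. With the block the brighter probe set stood at 0.41 ± 0.18 (limma adjusted p = 0.162), and the difference between the 2 probe sets was not tested.

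Ebi3 had log2 intensities of 13.51 and 13.47 in PGN-treated NOD.Idd3 cells, against 13.01 and 12.25 in unstimulated NOD.Idd3 cells. It had 13.35 and 13.43 in PGN-treated NOD cells, against 12.64 and 12.66 in unstimulated NOD cells. Ebi3 was at or above percentile 96.7 on all 8 arrays, and the PGN arrays did not overlap the unstimulated ones. The averaged change was 0.80 ± 0.19, or 1.74-fold with a 95% interval of 1.30 to 2.33 (limma adjusted p = 0.0266). Leaving out any array other than replicate 1 of unstimulated NOD.Idd3 ended this call, with adjusted p from 0.0551 to 0.0828 and changes of 0.61 to 0.82. The highest gene on each array stood between 14.53 and 15.17, and whether a rise at this level was compressed was not tested. Group means were 13.49 ± 0.03 in PGN-treated NOD.Idd3 and 12.63 ± 0.54 in unstimulated NOD.Idd3 cells, and 13.39 ± 0.06 in PGN-treated NOD and 12.65 ± 0.01 in unstimulated NOD cells (SD, n = 2 each). The 2 unstimulated means did not differ beyond their spread, and with n = 2 the gap between the 2 PGN-treated means was not called either.

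In all, 3 of the 4 members had no overlap between PGN and unstimulated arrays by their brighter probe set, where 18% of all genes had none. In bulk samples more cells that express a gene and more RNA per cell cannot be told apart, which applies to each of these changes. Some markers of other cell types moved with PGN as well, where 4.86% of all genes were called higher and 6.4% lower. The summed intensity of the 5 measured T cell markers was 1973 to 2393 in PGN-treated against 4345 to 5396 in unstimulated NOD.Idd3 cells, and 1408 to 1684 in PGN-treated against 3444 to 6078 in unstimulated NOD cells. Here 1 of the 5 fell, Cd3d (-1.48 ± 0.21), which was the brightest of them and made up most of the sum. The median change of the 5 was -0.33, and Cd3e stood at -0.18 ± 0.17. The sum over 5 platelet markers was 731 to 1088 in PGN-treated against 1838 to 3253 in unstimulated NOD.Idd3 cells, and 1104 to 1331 against 3448 to 6450 in NOD cells, and 2 of the 5 fell, Ppbp and Pf4. The median change of the platelet markers was -0.12. Over 7 conventional dendritic cell markers the sum was 8026 to 8067 in PGN-treated against 4206 to 6883 in unstimulated NOD.Idd3 cells, and 9438 to 10417 against 8355 to 10114 in NOD cells. The median change of these 7 was -0.03. Of them, Ccr7 rose (1.64 ± 0.22, limma adjusted p = 0.00237), while Itgax (-0.62 ± 0.31) and Zbtb46 (-0.13 ± 0.21) did not pass. Xcr1, a defining marker of cross-presenting dendritic cells, had 3.81 to 4.15. That is below the arrays' 25th percentiles over genes (4.28 to 4.57), so no lack of change was read from it. Of 8 neutrophil markers 2 fell, Cxcr2 and Mmp8. The sum over the 8 was 96167 to 97735 in PGN-treated against 103356 to 136175 in unstimulated NOD.Idd3 cells. In NOD cells it was 100372 to 102197 against 113231 to 115476. The median change of the 8 was -0.32, and the 6 that did not pass ran from -0.82 (Csf3r) to -0.08 (S100a8). Among the other lists, 1 of 4 monocyte markers fell (Cx3cr1, -2.66 ± 0.35), with a median of -0.26 and the other 3 at -0.33 to 0.72. Of 5 NK cell markers 1 fell (Prf1, -0.52 ± 0.14), with a median of 0.01 and the other 4 at -0.42 to 1.23. Of 4 plasmacytoid dendritic cell markers 1 rose (Il3ra, 0.68 ± 0.17), with a median of 0.44. None of 8 macrophage and 6 B cell markers passed. A single call in a list of 4 or 5 is near the share over all genes. The part of these cell types in the subunit changes was not tested.

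Within single strains, 2 of 4 members passed in each, the same genes Il12a and Il23a, beside 3.14% of all genes in NOD.Idd3 and 3.94% in NOD. Il12a changed by 3.66 ± 0.75 in NOD.Idd3 (limma adjusted p = 0.0383) and by 3.86 ± 0.75 in NOD (adjusted p = 0.0283). Il23a changed by 3.69 ± 0.74 in NOD.Idd3 (adjusted p = 0.0345) and by 4.54 ± 0.74 in NOD (adjusted p = 0.0141). The 2 genes were 25th and 24th in size among all rises in NOD.Idd3, and 22nd and 11th in NOD. Ebi3 stood at 0.86 ± 0.26 in NOD.Idd3 (adjusted p = 0.139) and 0.74 ± 0.26 in NOD (adjusted p = 0.169). Il12b stood at 0.33 ± 0.32 in NOD.Idd3 and 0.49 ± 0.32 in NOD, without passing.

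These within-strain calls, from the fit without the replicate block, depended on single arrays. With the block both genes were also called in each strain, at limma adjusted p from 0.00136 to 0.00432. Leaving out an array was not tried with the block. In NOD.Idd3 neither gene was called without replicate 2 of unstimulated NOD.Idd3, without either PGN-treated NOD.Idd3 array or without either PGN-treated NOD array, the last of which enters only through the shared estimate of spread. Without replicate 1 of unstimulated NOD.Idd3, Il12a was not called (adjusted p = 0.0644). In NOD neither was called without replicate 2 of unstimulated NOD or without either PGN-treated NOD array. The NOD change of Il12a was 2.59 without replicate 2 and 5.12 without replicate 1 of unstimulated NOD, and that of Il23a 3.68 and 5.39. The NOD.Idd3 change of Il12a was 2.93 without replicate 2 and 4.40 without replicate 1 of unstimulated NOD.Idd3, and that of Il23a 2.67 and 4.71. Where a PGN-treated NOD array was left out, the calls were lost at NOD changes of 3.48 and 4.23 for Il12a and 4.52 and 4.55 for Il23a, and at the same NOD.Idd3 changes as with all arrays.

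**Figure D2:**
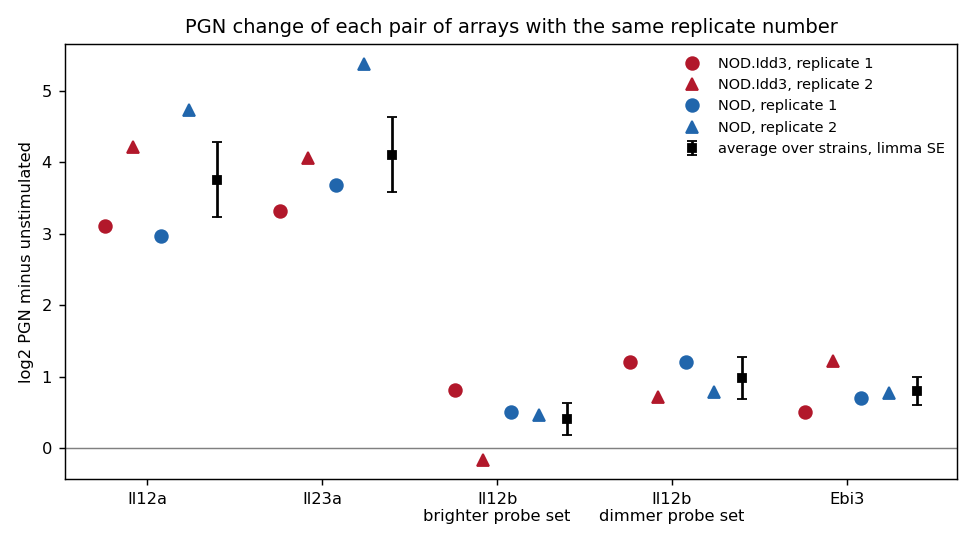
Log2 PGN minus unstimulated for each pair of arrays that share a strain and a replicate number, with the averaged limma estimate and its SE (squares, from the fit of all probe sets). Il12a and Il23a lie between 2.97 and 5.38, and the triangles of replicate 2 lie above the circles of replicate 1 in both strains.

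The unstimulated levels of the 2 alpha chain genes separated by replicate number. For Il12a, replicate 1 exceeded replicate 2 by 1.48 in unstimulated NOD.Idd3 and by 2.53 in unstimulated NOD cells, while with PGN the gap was 0.37 in NOD.Idd3 and 0.76 in NOD cells. For Il23a it was 2.05 in unstimulated NOD.Idd3 and 1.71 in unstimulated NOD cells, and with PGN 1.31 in NOD.Idd3 and 0.03 in NOD cells. Over all groups, replicate 1 minus replicate 2 was 1.28 ± 0.31 for Il12a (limma adjusted p = 0.0974) and 1.27 ± 0.30 for Il23a (adjusted p = 0.0876), with 1.26% of genes called. This comparison was chosen after the values were seen, and neither gene passed it.

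For the alpha chain genes the PGN change within replicate 1 was the smaller in both strains. Il12a was higher with PGN by 3.11 in replicate 1 and 4.22 in replicate 2 of NOD.Idd3, and by 2.97 in replicate 1 and 4.74 in replicate 2 of NOD. Il23a was higher by 3.32 in replicate 1 and 4.06 in replicate 2 of NOD.Idd3, and by 3.69 in replicate 1 and 5.38 in replicate 2 of NOD. Expressed as folds, the 4 pairs ran from 7.84 to 26.72 for Il12a, and the highest pair of Il23a was 41.57-fold. Ebi3, already bright without PGN, gave 0.50 and 1.22 in the NOD.Idd3 pairs and 0.70 and 0.77 in the NOD pairs. The brighter Il12b probe set gave 0.82 and -0.16 in the NOD.Idd3 pairs and 0.50 and 0.47 in the NOD pairs. The dimmer one gave 1.20 and 0.72 in the NOD.Idd3 pairs and 1.21 and 0.78 in the NOD pairs. The direction of Il12a, Il23a, Ebi3 and the dimmer Il12b probe set was the same in all 4 pairs, which follows from their lack of overlap. Levels of some marker lists and the Gapdh control also moved with replicate number. The mean of platelet markers, Itgam and the excess of the 3' over the 5' Gapdh control were higher in replicate 1 in all 4 groups. Means of the B cell, NK cell and monocyte markers were higher in replicate 2 in all 4 groups. Some members of these lists went the other way. Itga2b was higher in replicate 2 in both NOD.Idd3 groups, Gp9 in both unstimulated groups and Pf4 in PGN-treated NOD cells. Gp1bb was higher in replicate 2 in all groups but PGN-treated NOD.Idd3. Among the platelet markers only Ppbp was higher in replicate 1 in every group. Pax5 and Ccr2 were higher in replicate 1 in both NOD groups, and Ccr2 also in PGN-treated NOD.Idd3 cells. Klrk1 was higher in replicate 1 in PGN-treated NOD and unstimulated NOD.Idd3 cells, and Ncr1 in PGN-treated NOD cells. In unstimulated NOD the mean log2 intensity of 6 B cell markers was 7.48 in replicate 1 and 8.54 in replicate 2, and that of 5 NK cell markers 6.55 and 7.20. In unstimulated NOD.Idd3 the means were 6.39 and 7.13 for B cell markers, and 6.52 and 7.10 for NK cell markers. The platelet marker sum was 3253 in replicate 1 and 1838 in replicate 2 of unstimulated NOD.Idd3, and 6450 and 3448 in those of unstimulated NOD. Monocyte markers had a mean log2 intensity of 10.14 in replicate 1 against 10.79 in replicate 2 for unstimulated NOD.Idd3 cells, with 9.91 against 10.29 for unstimulated NOD cells. The Gapdh excess was 0.80 and 0.75 in unstimulated NOD.Idd3, and 1.08 and 0.88 in unstimulated NOD. The excess of the Actb control went the other way in NOD.Idd3, at 0.22 and 0.35 unstimulated and 0.27 and 0.46 with PGN. In NOD it was 0.54 and 0.43 unstimulated and 0.58 and 0.48 with PGN. The part of any of these in the replicate gap was not tested.

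The next question was whether the strains differed. No member was called in any strain comparison, and no gene of the whole table was (0% called, limma, with 984, 611 and 314 of 18193 genes at an unadjusted p under 0.05 with PGN, unstimulated and for the difference in response). With the replicate block 27 genes passed for the strain difference averaged over conditions, none of them a member (adjusted p of 0.554 to 0.957 over the 4). With PGN, the NOD.Idd3 minus NOD difference was 0.18 ± 0.75 for Il12a, -1.01 ± 0.74 for Il23a, -0.23 ± 0.32 for Il12b and 0.10 ± 0.26 for Ebi3. Unstimulated, it was 0.37 ± 0.75, -0.17 ± 0.74, -0.08 ± 0.32 and -0.02 ± 0.26 in the same order of genes. Averaged over conditions it was 0.28 ± 0.53, -0.59 ± 0.52, -0.15 ± 0.23 and 0.04 ± 0.19.

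Il23a with PGN had the widest gap, 0.37 lower in NOD.Idd3 in replicate 1 and 1.66 lower in replicate 2, and it was -0.36 without replicate 2 of PGN-treated NOD.Idd3 and -1.67 without replicate 1 of that group. Its 95% interval, -2.69 to 0.66 on the log2 scale, runs from 0.15-fold to 1.58-fold. The difference in response (NOD.Idd3 minus NOD) was -0.85 ± 1.04 for Il23a, with an interval of -3.22 to 1.52, and -0.19 ± 1.07 for Il12a, with an interval of -2.61 to 2.23. For Il12b it was -0.15 ± 0.45 (-1.18 to 0.87), and for Ebi3 0.12 ± 0.37 (-0.72 to 0.97). These intervals leave room for differences of several fold for the alpha chains, and less for Ebi3, so they do not show that the strains respond alike.

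The summed levels of macrophage, B cell, conventional dendritic cell and platelet markers were lower on the NOD.Idd3 than on the NOD arrays in both conditions without overlap, with no single marker past the test. Averaged over conditions, the median NOD.Idd3 minus NOD difference was -1.25 for macrophage and -1.20 for B cell markers. It was -0.31 for dendritic cell and -0.48 for platelet markers, beside -0.03 over all genes. Among the macrophage markers Mrc1 stood at -1.56 ± 0.17 and C1qb at -1.37 ± 0.15 (limma adjusted p = 0.0656 for each). Fcgr1 stood at 0.54 ± 0.21 and Csf1r at -0.05 ± 0.14, and among the B cell markers Pax5 at 0.03 ± 0.18. Dpp4 stood at 0.20 ± 0.22 among the dendritic cell markers and Gp1bb at -0.05 ± 0.14 among the platelet markers. The conventional dendritic cell and platelet sums are those given with the PGN effect. By mean log2 intensity the platelet markers overlapped with PGN, at 6.56 to 6.99 in NOD.Idd3 and 6.96 to 7.29 in NOD cells. The mean log2 intensity of 8 macrophage markers was 9.39 to 9.55 in PGN-treated NOD.Idd3 against 10.21 to 10.40 in PGN-treated NOD cells, and 9.40 to 9.62 in unstimulated NOD.Idd3 against 10.25 to 10.45 in unstimulated NOD cells. The summed intensity of 6 B cell markers was 624 to 942 in PGN-treated NOD.Idd3 against 1250 to 2186 in PGN-treated NOD cells, and 723 to 1285 in unstimulated NOD.Idd3 against 1707 to 4375 in unstimulated NOD cells. The excess of the 3' over the 5' Gapdh control probe set in log2 intensity, a sign of RNA or labelling quality, was 0.72 to 0.80 on NOD.Idd3 and 0.88 to 1.16 on NOD arrays. For the Actb control the strains overlapped, at 0.22 to 0.46 on NOD.Idd3 and 0.43 to 0.58 on NOD arrays. Their part in the strain values of the subunit genes was not tested.

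**Figure D3:**
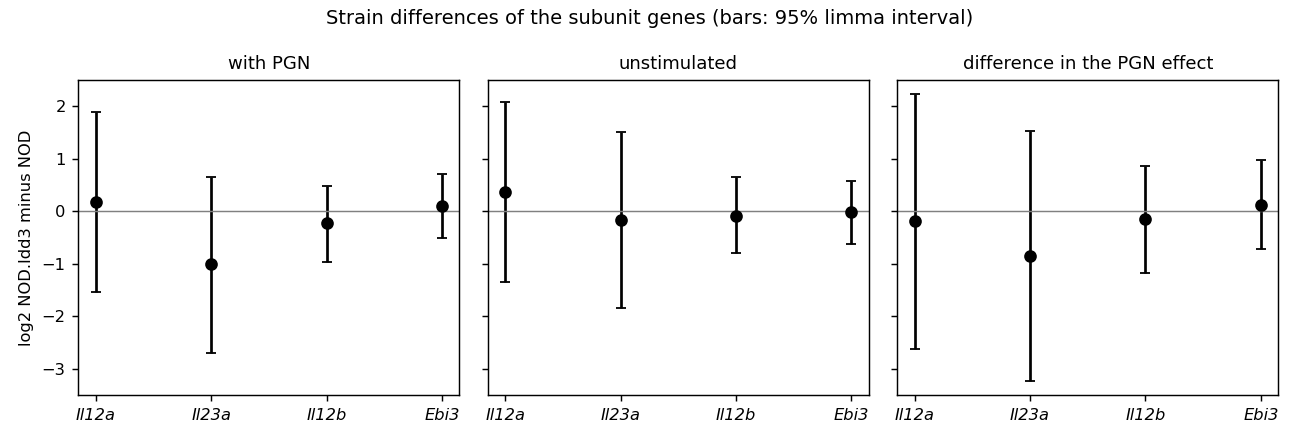
NOD.Idd3 minus NOD log2 difference of the 4 genes with PGN, without it, and as the difference in PGN effect, with 95% limma intervals. The interval of each gene crosses 0 in all 3 panels, and the alpha chain genes have the widest intervals.

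The genes around the subunits were read from lists that had been chosen with earlier results of these data known. Of 9 measured receptor and signalling genes of the family, 1 rose and none fell (median 0.23), beside 4.86% of all genes higher and 6.4% lower, so 1 call in a list of this size is near the share over all genes. That gene was Stat3, which carries the interleukin-23 signal in T cells (0.76 ± 0.16, limma adjusted p = 0.0160). The kinase gene Jak2 had the next smallest p at 0.52 ± 0.16 (adjusted p = 0.0825). The interleukin-12 receptor chains, expressed mainly on T and NK cells, stood at 0.07 ± 0.17 (Il12rb1) and -0.52 ± 0.19 (Il12rb2) without passing. Stat3 was called in 4 of 8 fits that left out an array.

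Of 21 transcription factor genes reported to act on subunit promoters, 8 rose and 2 fell (median 0.58), beside 4.86% of all genes higher and 6.4% lower. Rel, which encodes the NF-kB subunit c-Rel, had log2 intensities of 11.09 and 10.88 in PGN-treated against 9.45 and 9.22 in unstimulated NOD.Idd3 cells. In NOD cells Rel stood at 11.47 and 11.33 with PGN, against 9.42 and 9.42 without. Its groups did not overlap, and the averaged change was 1.82 ± 0.14 (limma adjusted p = 0.000265). Batf, an AP-1 family member, rose by 2.70 ± 0.38, Irf4 by 1.67 ± 0.36 and Nfkb2 by 1.13 ± 0.17. Bcl3, an atypical IkB protein, rose by 1.20 ± 0.17 and Nfil3, a repressor of Il12b in mouse macrophages, by 0.90 ± 0.17. The 2 genes that fell, named after their values were seen, were Maf (-0.86 ± 0.20, adjusted p = 0.0248), a repressor of Il12b and activator of Il10, and Fos (-0.81 ± 0.18, adjusted p = 0.0243). Over the fits that left out an array, 5 to 8 of these genes were higher and 0 to 2 lower. Irf4 was called in 4 of the 8 such fits, Maf in 2 and Fos in 3.

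Of 12 measured genes of peptidoglycan sensing, 1 rose and 1 fell (median 0.33), near the 4.86% higher and 6.4% lower over all genes. Irak2, a kinase of the Toll-like receptor complex, rose by 1.49 ± 0.18 (limma adjusted p = 0.00138). Tirap, an adaptor of Tlr2 and Tlr4, fell by 0.57 on the log2 scale (SE 0.15, adjusted p = 0.0481), and was called in 1 of 8 fits that left out an array. Of 10 measured genes that restrain interleukin-12 production, 5 rose and none fell (median 0.63), beside the same 4.86% and 6.4%, and 4 to 6 were higher when an array was left out. Il10, which lowers Il12a and Il12b transcription in myeloid cells, had 12.48 and 12.57 in PGN-treated against 6.41 and 5.65 in unstimulated NOD.Idd3 cells, and 12.50 and 12.93 against 6.77 and 5.59 in NOD cells. The cytokine signalling inhibitors Socs3 and Socs1 rose by 2.42 ± 0.29 and 1.32 ± 0.23, Tnfaip3 by 1.30 ± 0.20 and Dusp1 by 0.74 ± 0.16, and the call of Dusp1 remained in 2 of 8 fits without an array.

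Of 7 measured genes that interleukin-12 and interleukin-23 induce in lymphocytes, 1 rose and none fell (median -0.02), with 4.86% of all genes higher and 6.4% lower, so a single call is again near that share. Csf2, which myeloid cells also express, rose by 0.84 ± 0.20 (limma adjusted p = 0.0276), at levels of 3.24 to 4.69 that lie near the arrays' lower quartile, and it was called in 3 of 8 fits without an array. Ifng had log2 intensities of 5.55 and 7.90 in PGN-treated against 3.72 and 5.37 in unstimulated NOD.Idd3 cells, and 4.90 and 6.65 in PGN-treated against 4.57 and 3.71 in unstimulated NOD cells. Its change of 1.91 ± 0.60 did not pass (adjusted p = 0.0819). NK cell markers were higher in replicate 2 on these arrays too, with a mean of 7.5 against 6.34 in PGN-treated NOD.Idd3, and their part in the Ifng values was not tested.

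**Figure D4:**
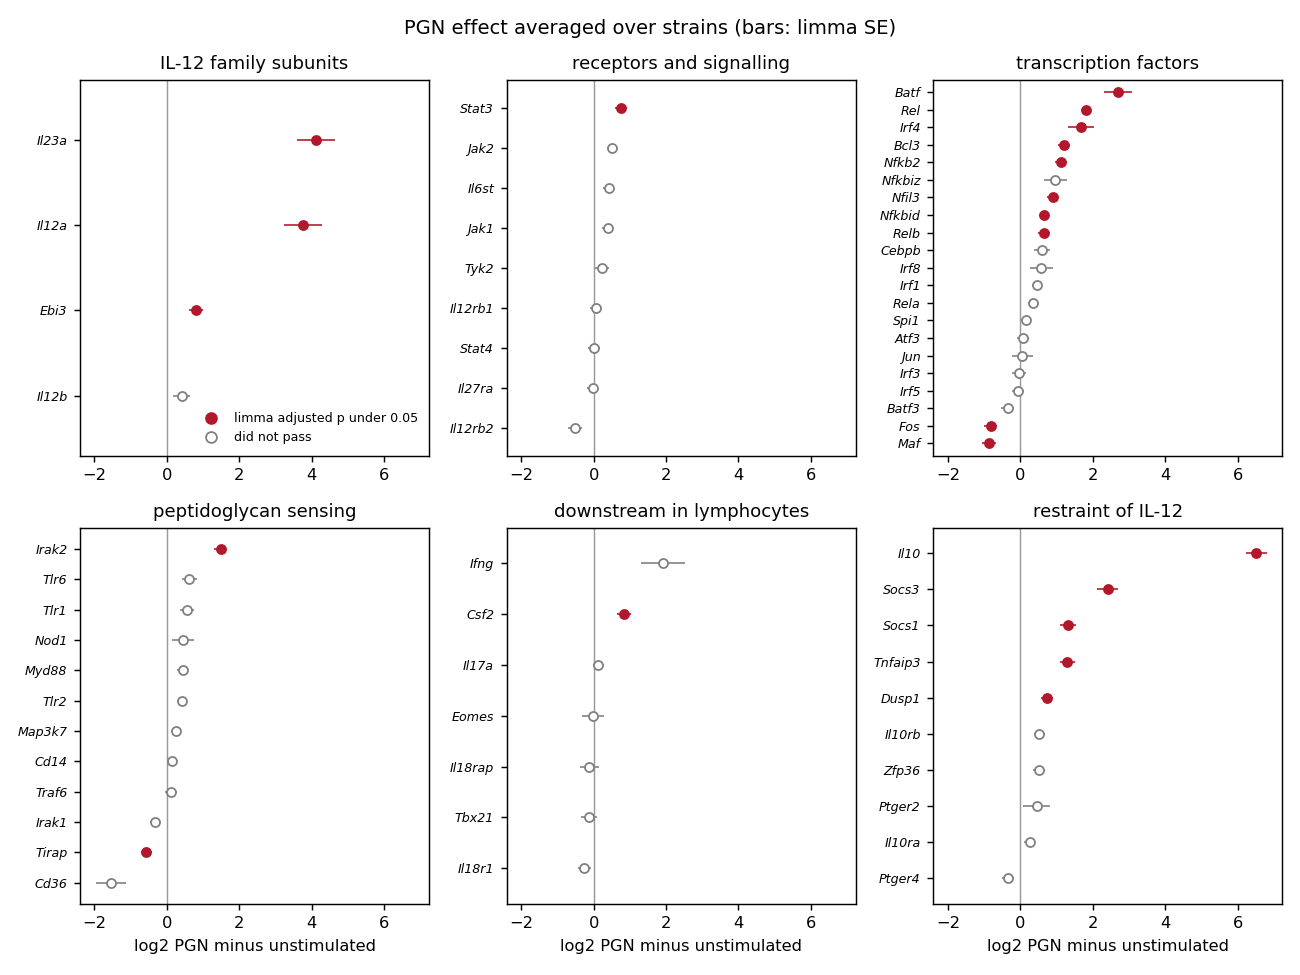
Averaged log2 PGN minus unstimulated of the 4 subunit genes and of the 5 lists around them, with limma SE (filled points passed at an adjusted p under 0.05). Il23a and Il12a lie to the right of all listed genes other than Il10 (6.52).

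The patterns over the 8 arrays were compared as a description, since all arrays share the PGN step. The genes most like Il12a by Pearson r were Plaur (0.993), Mthfd2l (0.990) and Casp4 (0.989). For Il23a they were Osgin2 (0.991), E230013L22Rik (0.990) and Ktn1 (0.989), and for Ebi3 Ercc6l (0.979), BC018473 (0.977) and Fnbp1l (0.975). For Il12b, by its brighter probe set, they were Crk (0.982), Phyhipl (0.965) and 4930478L05Rik (0.964). Among the members, Il12a and Il23a had r = 0.960, and Ebi3 had 0.902 with Il12a and 0.920 with Il23a. The values of the brighter Il12b probe set were 0.673 with Il12a, 0.706 with Il23a and 0.445 with Ebi3. The dimmer Il12b probe set was not compared.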

How the data were processed

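The authors deposited intensity values made with RMA, per the submitters' processing notes, as 1 array per sample and 45101 probe sets on a linear scale (3.97 to 42906). The sources used here give no version or chip definition. Log2 was taken of each value, with no further normalization. Control probe sets (64) and those with no symbol (9160) or several (932) were left out, and symbols were updated by gene ID from RefSeq (GRCm38.p6) for 34741 of 34945. Where a gene had several probe sets, the brightest on average stood for it.

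Group means were compared with limma 3.58.1 (R 4.3.3), with 4 residual and 4.69 prior degrees of freedom, and the Benjamini-Hochberg adjustment ran over 18193 genes. The script was tested on simulated data. Median log2 values per array were 6.38 to 6.65, and replicates correlated at 0.985 to 0.991 over genes. Array number limits the precision.

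The members, lists and tests were chosen with earlier results of these data known. All members were named, with up to 6 of each list that passed with the largest changes, or the smallest p where fewer than 2 passed, and the 3 genes most like each member.

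Replicate 1 arrays share a date in their array names, and differences between replicates correlated across groups (r 0.17 to 0.42), so the number was taken as pairing the arrays in the block alternative. Further fits tried the suffix RR1 of some array names, a variance trend, a filter at the 40th percentile, other handling of probe sets, quantile normalization, an offset of 16, array weights, only 4 arrays, and each array left out. Marker and list genes without a single-symbol probe set, such as Clec9a, were not analysed here.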

Additional observations from a re-analysis of the deposited data

How the results depend on the processing

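Over both strains Il12a and Il23a were called in all 9 alternative fits and in all 8 that left out an array, with changes of 3.13 to 4.39 and 3.60 to 4.63, so 2 to 3 members were called when an array was left out. In NOD 1 member was called in place of 2 with the RR1 term, with an offset of 16 and with array weights, each time without Il12a (3.86, 3.55 and 3.86, adjusted p = 0.0511, 0.0544 and 0.0525), and 0 to 2 when an array was left out. In NOD.Idd3 0 were called with the RR1 term and with the offset, at changes of 3.36 and 3.46 for Il12a and 3.74 and 3.48 for Il23a, and 0 to 2 when an array was left out. The cause was not tested. The replicate block changed no call of the members by their brighter probe set. For the averaged effect it gave 3.76 ± 0.31 for Il12a, 4.11 ± 0.30 for Il23a, 0.41 ± 0.18 for Il12b and 0.80 ± 0.17 for Ebi3. Of all genes, 2049 were called for the averaged effect and 3082 with the block (1111 to 2139 without an array). In NOD 717 were called, 1586 with the block, 410 with array weights and 416 with only 4 arrays (77 to 876 without an array). In NOD.Idd3 572 were called, 1207 with the block, 994 with array weights and 235 with the RR1 term (56 to 624 without an array). With each of 34945 probe sets tested, 3933 (11.3%), 1403 (4.01%) and 1058 (3.03%) probe sets were called for the averaged effect, NOD and NOD.Idd3, shares near those of genes.

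No strain value was called under any alternative, and several turned sign. Leaving out an array gave -1.45 to 1.07 (Il12a), -0.55 to 0.25 (Il12b), -1.87 to 0.18 (Il23a) and -0.26 to 0.51 (Ebi3) for the difference in response, and -0.89 to 1.63, -0.32 to 0.17, -1.19 to 0.86 and -0.41 to 0.36 for the unstimulated strain difference. With PGN it gave -0.20 to 0.56 for Il12a and -0.63 to 0.17 for Il12b, and averaged -0.36 to 0.91 for Il12a, -0.35 to 0.05 for Il12b and -0.15 to 0.23 for Ebi3. Il12b in NOD.Idd3 ranged from -0.07 to 0.73 with PGN over unstimulated. The Il12a strain difference with PGN was -0.12 with the RR1 term, and the unstimulated Il12b one 0.02 after quantile normalization. Fits without an array assume that the lone sample left varies like the other groups.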
